A study of Mus musculus with 6 samples.

Results

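The CCN family is a group of secreted matricellular proteins, and its genes were found by symbol among the 25655 genes of the deposited table. The symbols Cyr61, Ctgf, Nov, Wisp1 and Wisp2, the older names of Ccn1 to Ccn5, each had 1 row, so 5 genes of 25655 were members. All 5 passed the filter on low counts, which left 13941 genes for testing. Wisp3 (Ccn6), a further gene of the family, was not analysed here. Measurements came from Comma-Dβ, an established line of mouse mammary epithelial cells, at passage 29. Cells of the siID4 arm received a siGENOME pool of small interfering RNAs against mouse Id4, and cells of the NT arm a non-targeting ON-TARGETplus pool. Each pool was used at 20 nM, and RNA was taken 48 hr after transfection. The arms therefore differed in siRNA product line as well as in target, and a single pool stood for each arm. Each arm had 3 libraries, called biological replicates by the submitters with no word on what separates them, so p-values cover the spread between these libraries.

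CCN proteins sit in and around the extracellular matrix without serving as structural fibres. Their modules resemble parts of insulin-like growth factor binding proteins, von Willebrand factor and thrombospondin, and all but the Wisp2 product end in a cystine knot. They act by binding integrins, heparan sulfate proteoglycans, low density lipoprotein receptor-related proteins and growth factors. Cyr61 and Ctgf are immediate early genes and well-known targets of the coactivators YAP and TAZ with TEAD factors, of serum response factor (SRF) with its cofactors the MRTFs, and, for Ctgf, of TGF-β. Wisp1 and Wisp2 were named as Wnt1-inducible genes of a mouse mammary epithelial line.

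The library totals ran from 21.7 to 23.1 M counts in siID4 and from 19.2 to 23.1 M in NT. Id4, an inhibitor of DNA binding by other helix-loop-helix proteins and the target of the siRNA, had 59.4, 62.2 and 48.2 CPM (counts scaled to library size) in the siID4 libraries and 135, 114 and 118 CPM in the NT libraries. Transcript of Id4 thus remained at 0.463 of the NT level. The basal keratin genes Krt5 and Krt14 averaged 727 and 868 CPM in siID4 and 822 and 936 CPM in NT, and the luminal keratin genes Krt8 and Krt18 averaged 74.7 and 111 CPM in siID4 and 87.9 and 123 CPM in NT. Krt19, also luminal, averaged 1.71 CPM in siID4 and 1.57 CPM in NT. Leukocyte markers summed to at most 1.68 CPM in any siID4 library and 1.14 CPM in any NT library, and Ptprc, which defines leukocytes, averaged 0.015 CPM in siID4 and 0.047 CPM in NT.

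Of the 5 CCN genes, 3 rose in siID4 cells and 2 did not pass the test. Wisp2 rose 2.59-fold, Wisp1 1.73-fold and Cyr61 by a log2 fold change of 0.53. Ctgf was 1.28 times its NT level and Nov 0.758 times, and neither difference passed. Across all genes tested, 4.62% rose by the same test (edgeR's quasi-likelihood test, Benjamini-Hochberg adjusted p under 0.05) and 4.93% fell, 644 and 687 genes. With library totals in place of TMM scaling the split was 829 higher and 564 lower. No CCN gene fell, with 0 of 5 also at an unadjusted p under 0.05, by DESeq2 and by limma-voom, but a fit with the replicate number as a block called Nov lower (log2 fold change −0.41, adjusted p = 0.0119). The median log2 fold change was 0.53 over the 5 members and 0.00079 over all genes tested. The arms did not overlap for the 3 genes that rose, and 30.9% of all genes tested had arms without overlap.

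**Figure D1:**
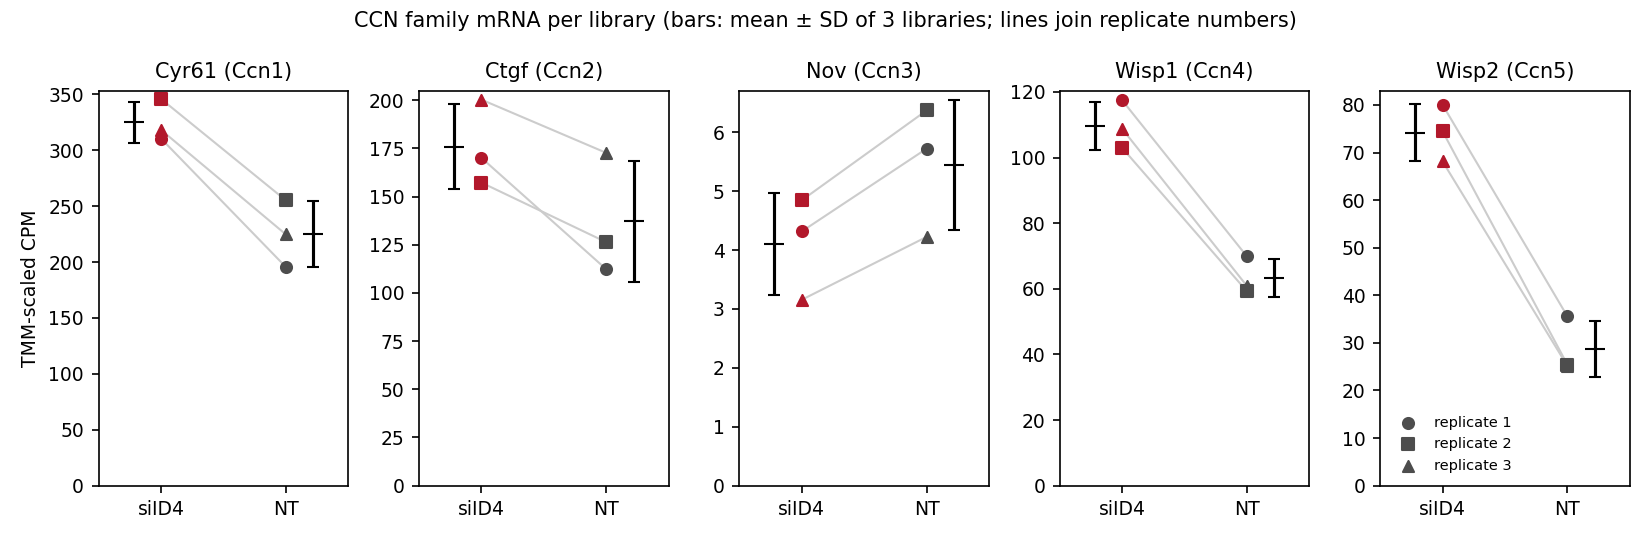
Level of each CCN gene in each library, in TMM-scaled CPM on a linear axis from 0, with siID4 libraries in red and NT libraries in grey. Lines join libraries with the same replicate number, and the black bars are the mean ± SD of 3 libraries. All 3 siID4 libraries lie above all 3 NT libraries for Cyr61, Wisp1 and Wisp2, while the arms overlap for Ctgf and Nov.

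Levels can be compared between genes only per length, as TPM (transcript shares corrected for length). In every library of both arms the order was Cyr61, Ctgf, Wisp2, Wisp1 and Nov. Cyr61 held 298, 335 and 302 TPM in the siID4 libraries and 181, 238 and 207 TPM in the NT libraries. In siID4 that was a higher level than in 96.9% of the genes tested, and in NT higher than in 95.1%. Nov stood at 2.91, 3.30 and 2.11 TPM in siID4 and 3.72, 4.18 and 2.74 TPM in NT, above 17.2% of the genes tested in siID4 and 20.6% in NT. Neighbours in this order did not overlap in TPM within either arm. The closest pair in siID4 was Ctgf and Wisp2, with a 1.56-fold difference in mean TPM, where the NT libraries had a 3.14-fold difference. The closest pair in NT was Wisp2 and Wisp1, 1.42-fold apart, and 2.12-fold apart in siID4.

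Added up, the 5 genes made 584, 601 and 590 TPM in the siID4 libraries and 341, 395 and 398 TPM in the NT libraries. The summed level did not overlap between the arms, and its mean in siID4 was 1.57 times that in NT. The shares of Wisp2 and Nov did not overlap between the arms. Among single genes tested, 30.9% had arms without overlap in CPM, and no such background was computed for sums or shares. Wisp2 supplied 16.9%, 15.4% and 14.1% of the family's TPM in siID4, against 12.4%, 7.72% and 7.51% in NT. The Nov share was 0.499%, 0.549% and 0.357% in siID4 and 1.09%, 1.06% and 0.689% in NT. The TPM of Nov itself overlapped between the arms (2.11 to 3.30 in siID4 and 2.74 to 4.18 in NT). Its share is taken of a family sum that was higher in siID4. The shares of Cyr61 (52.6% ± 2.70 in siID4 and 55.1% ± 4.46 in NT), Ctgf (24.1% ± 2.93 in siID4 and 28.3% ± 4.86 in NT) and Wisp1 (7.31% ± 0.567 in siID4 and 6.44% ± 1.16 in NT) overlapped between the arms (SD, n = 3 each). In bulk RNA, a change in the number of cells that express a gene and a change in RNA per cell cannot be told apart.

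**Figure D2:**
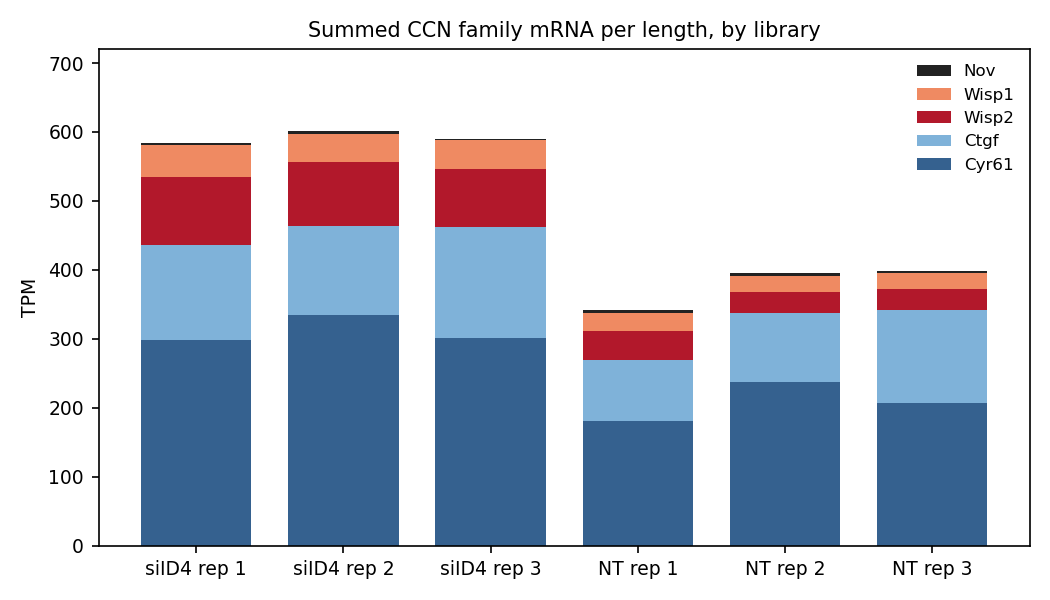
Stacked TPM of the 5 CCN genes in each library, siID4 libraries to the left of NT libraries, on a linear axis from 0. The stacks reach 584 to 601 TPM in siID4 and 341 to 398 TPM in NT, with Cyr61 the largest part in all 6 and Nov a thin line at the top.

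Wisp2 (Ccn5, ENSMUSG00000027656) encodes the short member without the cystine knot, which in other settings counters Ctgf and is induced by oestrogen and Wnt signals. The gene is protein-coding and lies on the plus strand of GRCm38 at chr2:163820861-163833146. Its level was 80.0, 74.5 and 68.1 CPM in the siID4 libraries and 35.6, 25.4 and 25.2 CPM in the NT libraries. The lowest siID4 library was thus far above the highest NT library, which was replicate 1. The means were 74.2 ± 5.96 CPM in siID4 and 28.7 ± 5.94 CPM in NT (SD, n = 3 each). This came to a log2 fold change of 1.37 with an SE of 0.13 (edgeR adjusted p = 0.00123), with a 95% interval from 1.07 to 1.67. Only 0.387% of the genes tested had a higher log2 fold change. Within replicate numbers 1, 2 and 3 the siID4 library exceeded its NT counterpart by between 1.17 and 1.55 on the log2 scale. The call was made in each of the 14 alternative fits, with log2 fold changes from 1.28 to 1.55.

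Wisp1 (Ccn4, ENSMUSG00000005124) encodes a Wnt-inducible secreted protein that binds the small proteoglycans decorin and biglycan. It lies at chr15:66891320-66923201 on the plus strand and is protein-coding. The siID4 libraries held 117, 103 and 109 CPM and the NT libraries 69.9, 59.2 and 60.8 CPM. Each siID4 library stood above each NT library, and both arms were tight, with coefficients of variation of 6.66% in siID4 and 9.06% in NT. The means were 110 ± 7.31 CPM in siID4 and 63.3 ± 5.73 CPM in NT (SD, n = 3 each). This came to a log2 fold change of 0.79 with an SE of 0.07 (edgeR adjusted p = 6.63e-04), with a 95% interval from 0.62 to 0.96. Differences within replicate numbers 1, 2 and 3 were 0.75, 0.80 and 0.84 on the log2 scale. All 14 alternative fits called it, with values from 0.74 to 0.87.

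Cyr61 (Ccn1, ENSMUSG00000028195) encodes an integrin ligand that promotes adhesion, migration and angiogenesis. It is a protein-coding gene on the minus strand at chr3:145646976-145649981. Its level was 310, 346 and 318 CPM in the siID4 libraries and 196, 255 and 225 CPM in the NT libraries. The gap between the lowest siID4 library and the highest NT library was smaller than for Wisp2 or Wisp1 in relative terms. The means were 325 ± 18.6 CPM in siID4 and 225 ± 29.8 CPM in NT (SD, n = 3 each). This came to a log2 fold change of 0.53 with an SE of 0.09 (edgeR adjusted p = 0.00989), with a 95% interval from 0.32 to 0.74. Of the 14 alternative fits 13 called it, the exception being the fit without siID4 replicate 2 (log2 fold change 0.48, adjusted p = 0.0542).

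Among the members only Cyr61 had an entry in the RefSeq promoter table for build GRCm38.p6. The 250 bases before its start, chr3:145649986-145650235 on the minus strand, are shown because Cyr61 is the most abundant CCN mRNA here and a model target of TEAD factors. Capitals mark the match to the TEAD motif and the TATA box:

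Cyr61 promoter: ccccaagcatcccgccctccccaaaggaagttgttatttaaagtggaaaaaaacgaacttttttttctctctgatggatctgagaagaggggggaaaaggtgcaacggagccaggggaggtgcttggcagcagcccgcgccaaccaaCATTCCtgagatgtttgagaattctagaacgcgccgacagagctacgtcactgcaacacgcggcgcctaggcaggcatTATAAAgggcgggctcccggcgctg

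Both strands of the window were searched, with no overlap between the matches found. The TEAD motif GGAATG matched once, on the opposite strand as CATTCC, from base 103 to base 98 before the start. This motif was held by 12.6% of the 32851 promoter windows listed there. TATAAA lay from base 25 to base 20 before the start and occurred in 12.4% of windows. The core letters of the cyclic AMP response element, TGACG, matched once on the opposite strand, at bases 58 to 54 before the start, and 17.8% of windows held it. The E-box CANNTG, the general motif of the helix-loop-helix factors that ID proteins bind, had 0 matches in this window, and 66.2% of windows held at least 1. The AP-1 motif TGANTCA (6.75% of windows) and the CArG box of SRF (1.47%) also had 0 matches, which says only that these letters are absent from this stretch.

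Ctgf (Ccn2, ENSMUSG00000019997), the gene of connective tissue growth factor, a profibrotic effector of TGF-β, lies at chr10:24595442-24598683 on the plus strand and is protein-coding. The siID4 libraries held 170, 157 and 200 CPM and the NT libraries 112, 126 and 173 CPM. NT replicate 3 was above 2 of the 3 siID4 libraries, so the arms overlapped. The means were 176 ± 22.1 CPM in siID4 and 137 ± 31.6 CPM in NT (SD, n = 3 each). The log2 fold change of 0.36 (SE 0.16) did not pass (edgeR adjusted p = 0.230), and its 95% interval ran from −0.03 to 0.75, a range that takes in no change as well as the size seen for Cyr61. Within replicate numbers the siID4 library was higher in 3 of 3, by 0.60, 0.32 and 0.21 on the log2 scale, and the fit with a replicate block gave an adjusted p of 0.113. Without NT replicate 3 the log2 fold change was 0.56 (adjusted p = 0.0185), the only 1 of the 14 alternative fits that called Ctgf.

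Nov (Ccn3, ENSMUSG00000037362), whose product binds Notch1 and often acts against Ctgf, lies at chr15:54745702-54754039 on the plus strand and is protein-coding. It was scarce, with 100, 107 and 72 counts in the siID4 libraries and 114, 122 and 96 counts in the NT libraries. Scaled, that was 4.32, 4.85 and 3.16 CPM in siID4 and 5.72, 6.37 and 4.22 CPM in NT. The arms overlapped, and replicate 3 was the lowest library in both. The log2 fold change of −0.40 (SE 0.20) did not pass (edgeR adjusted p = 0.259), and its 95% interval ran from −0.86 to 0.06. The differences within replicate numbers 1, 2 and 3 were close to each other, at −0.41, −0.39 and −0.42 on the log2 scale. The fit with the replicate block, in which Nov was called lower, called 17.9% of the genes tested higher and 18.3% lower, so a call in it is common. It called 3 of the 5 CCN genes higher and 1 lower.

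**Figure D3:**
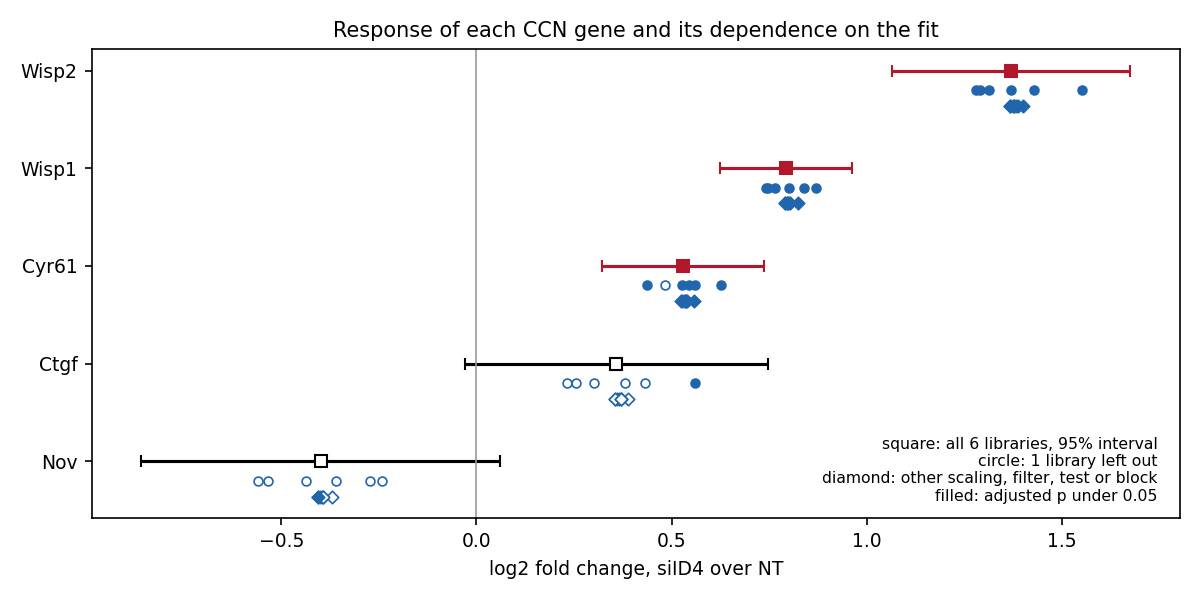
Log2 fold change of siID4 over NT for each CCN gene, with its 95% interval from all 6 libraries (squares), the 6 fits that leave out a library (circles) and the fits with another scaling, filter, test or block (diamonds). Filled markers have an adjusted p under 0.05. Wisp2, at 1.37, and Wisp1, at 0.79, are filled throughout, Cyr61 is open in 1 fit, and Ctgf and Nov are filled in 1 fit each.

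Whether the CCN genes differed in their response was compared through ratios of 2 members within a library, which need no scaling between libraries apart from a pseudocount of 0.5 CPM. All 10 pairs were compared by an exact two-sided permutation test, in which 3 against 3 libraries cannot give a p below 0.1. The ratio did not overlap between the arms in 6 pairs, each at the smallest possible exact p of 0.1 (0.167 adjusted over the 10 pairs). These 6 were Wisp2 over each of the other members, Wisp1 over Nov and Cyr61 over Nov. None of the 10 differences can therefore be called significant by this test. The pairs share members, so their ratios are not independent, and the share of other gene pairs without overlap was not computed. Of single genes tested, 30.9% had arms without overlap in CPM.

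These ratios are of CPM, without correction for length, so their sign does not order the levels of 2 genes, and only the difference between the arms is read. The log2 ratio of Wisp2 to Wisp1 was −0.55, −0.46 and −0.67 in the siID4 libraries and −0.96, −1.20 and −1.26 in the NT libraries. The mean ratio was 0.58 higher in siID4 (SE 0.11), which is a 1.49-fold larger response of Wisp2. Against Cyr61 the ratio of Wisp2 was 0.83 higher in siID4 (SE 0.28), and against Ctgf it was 0.99 higher (SE 0.36). Against Nov it was 1.74 higher (SE 0.23).

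Ratios that overlapped between the arms were those of Wisp1 over Cyr61 (0.26 higher in siID4, SE 0.21, exact permutation p = 0.3), Wisp1 over Ctgf (0.42, SE 0.26, exact p = 0.2), Cyr61 over Ctgf (0.16, SE 0.23, exact p = 0.6) and Ctgf over Nov (0.74, SE 0.43, exact p = 0.3). Cyr61 and Ctgf gave the smallest of the 10 differences in response, and without NT replicate 3 it was −0.015. Within replicate numbers all 10 ratios moved the same way in 3 of 3, where an exact sign-flip test cannot go below 0.25. These 10 ratios are built from 5 genes and are not 10 separate results.

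**Figure D4:**
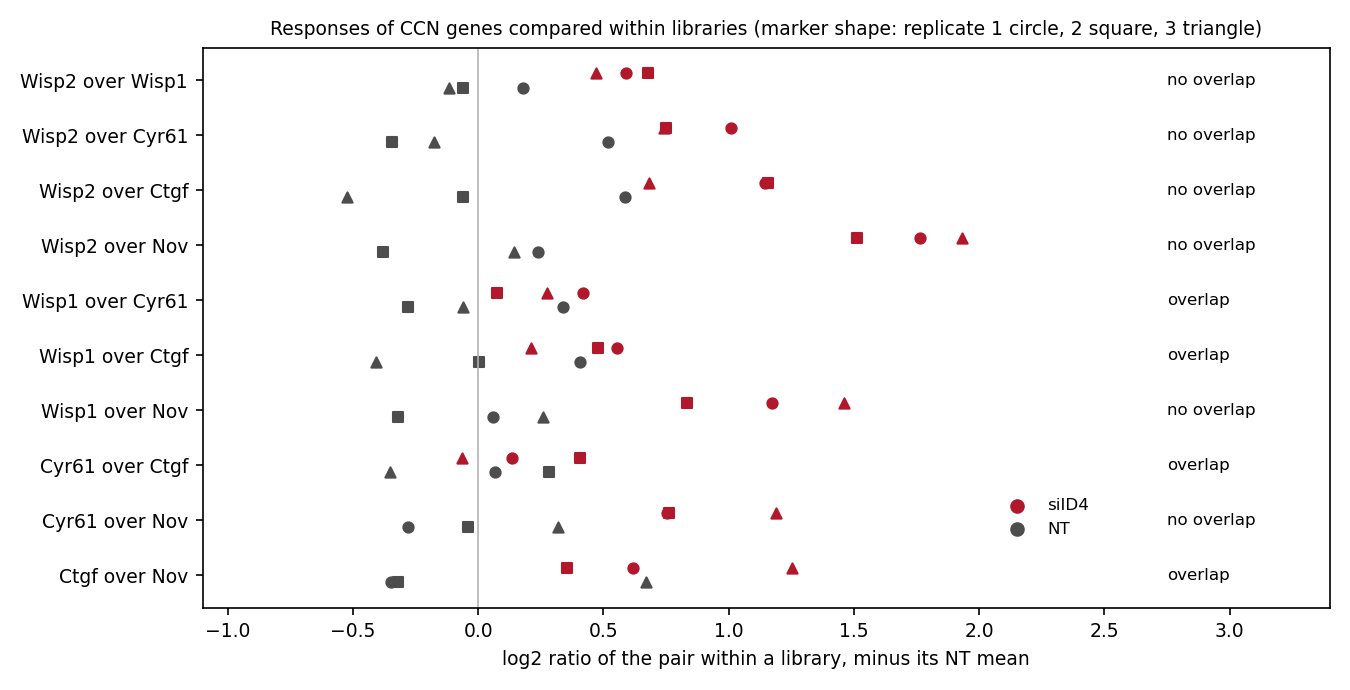
Log2 ratio of 2 CCN genes within each library, shown relative to the NT mean of that ratio, for all 10 pairs. Red markers are siID4 and grey markers NT, and the marker shape gives the replicate number. The 4 ratios with Wisp2 on top show siID4 libraries to the right of all NT libraries, with mean shifts from 0.58 to 1.74.

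Profiles were compared among genes averaging 5 CPM or more, leaving out predicted gene models, clone-named genes and genes without a symbol. Those nearest each member over the 6 libraries had the smallest root mean square difference in log2 CPM after centring each gene. For Wisp2 they were Bst2, Ifi47 and Xaf1, all known as interferon-inducible genes, at distances of 0.07, 0.14 and 0.14 log2 units, where the median gene lay 0.72 away. Bst2 averaged 164 CPM in siID4 and 67.7 CPM in NT. For Wisp1 the nearest were the histocompatibility gene H2-Q2, Postn, which encodes the matricellular protein periostin, and Mme, a surface peptidase of myoepithelial cells, at 0.05, 0.07 and 0.08. Postn had 385 CPM in siID4 and 225 CPM in NT on average.

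Ctgf lay nearest to Actg2, a smooth muscle actin, Jag1, a Notch ligand, and Slc35f1, at 0.06, 0.08 and 0.08. Cyr61 lay nearest to Acad11, Atp6v0e2 and Dnhd1, each at 0.05, and Nov to Efemp1, Sesn3 and S100a4, at 0.10, 0.11 and 0.11. Among the members themselves the closest profiles were those of Cyr61 and Ctgf and of Wisp1 and Cyr61, each 0.24 apart, and the most distant were Wisp2 and Nov, 0.92 apart. The siID4 and NT difference enters every one of these distances. With the replicate block Actg2, Jag1 and Slc35f1 were called higher, and Efemp1, Sesn3 and S100a4 lower. None of them was called in the main edgeR fit of all 6 libraries. Some were called in other fits without a block: Jag1 and Sesn3 by DESeq2, and Actg2, Jag1 and Efemp1 without NT replicate 3. Ctgf itself was called neither in the main fit nor with the block, and Nov was called lower with the block only.

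Receptors for CCN proteins did not move together. Of 11 tested, 1 rose and 2 fell, with a median log2 fold change of 0.00026. Itgav, the αv integrin chain that pairs with β3 and β5 chains to bind Cyr61 and Ctgf, had 122 ± 4.82 CPM in siID4 and 182 ± 5.38 CPM in NT and fell by 0.58 on the log2 scale (edgeR adjusted p = 3.91e-04). Itgb2, a leukocyte integrin chain of low abundance here, fell as well (0.792 ± 0.177 CPM in siID4 and 2.16 ± 0.481 CPM in NT, adjusted p = 0.0115, not called without siID4 replicate 2 or NT replicate 2). Itga5, a fibronectin receptor chain, rose by a log2 fold change of 0.26 (adjusted p = 0.0433, called in 1 of the 6 fits without a library). Lrp1, an endocytic receptor for Ctgf, stood at −0.15 on the log2 scale (adjusted p = 0.0505), and was called lower with upper quartile scaling, by DESeq2, by limma-voom and with the replicate block (adjusted p = 2.72e-05). Notch1, the partner of Nov, had 93.7 CPM in siID4 and 90.7 CPM in NT. With the replicate block 3 receptor genes were higher and 4 lower.

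Of 9 genes for binding partners of CCN proteins, 3 rose and 1 fell, with a median log2 fold change of 0.19. Bgn, biglycan, rose by 0.94 (adjusted p = 0.0338), Bmp4, a ligand bound by Ctgf, by 1.07 (0.0111) and Hspg2, perlecan, by 0.19 (0.0344). Vegfa, which Ctgf also binds, fell by 0.45 on the log2 scale (adjusted p = 0.00736). Without siID4 replicate 2 none of these 4 was called. Bgn was called in 2 and Hspg2 in 1 of the 6 fits without a library, and the replicate block gave 5 higher and 2 lower.

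Of 20 further YAP, TAZ and TEAD targets 5 rose and 3 fell, with a median log2 fold change of 0.17. Amotl2, a YAP-binding angiomotin, had a mean of 129 CPM in siID4 and 93.0 CPM in NT (log2 fold change 0.47, adjusted p = 0.00495), and Lats2, a Hippo kinase, had 67.2 ± 3.22 CPM in siID4 and 51.1 ± 2.53 CPM in NT (0.39, adjusted p = 0.00561). Rbms3 rose by 0.54, and Nt5e, a surface nucleotidase, fell by 0.32 on the log2 scale. These 4 were called in each of the 6 fits without a library. Ankrd1, a target often measured beside Cyr61 and Ctgf, had 64.2 ± 12.5 CPM in siID4 and 56.0 ± 6.46 CPM in NT (adjusted p = 0.449, and 0.00111 with the replicate block). Without siID4 replicate 2 there were 3 that rose and 1 that fell, without NT replicate 2 there were 3 and 2, and the replicate block gave 10 higher and 4 lower.

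Of 15 genes of the Hippo cascade and its effectors 3 rose and 3 fell, with a median of 0.014. Tead1 (0.18) and Tead3 (0.35) rose with Lats2, and Tead4 was among those that fell (−0.39). For Yap1 the value was 0.13 (adjusted p = 0.0872, and 5.79e-04 with the replicate block), as it was for Wwtr1, the TAZ gene (adjusted p = 0.271, and 0.00144 with the block). Tead1 was called in 1, Tead3 in 2 and Tead4 in 3 of the 6 fits without a library. Without siID4 replicate 2 only Lats2, which is in both lists, was called, and the replicate block gave 5 higher and 3 lower.

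Of 14 SRF and MRTF targets 7 rose and 0 fell, also 0 at an unadjusted p under 0.05 and by DESeq2, with a median of 0.25. Cnn1 (1.69), Tagln (1.54), Myl9 (1.00) and Tpm1 (0.41), genes of the contractile apparatus, were called in each of the 6 fits without a library, and Myl9 was not called with no filter on low counts. The count that rose was 4 without NT replicate 2, 11 without NT replicate 3 and 12 with the replicate block. Of 8 SMAD3 targets 3 rose, Ltbp2 (0.53) and Pmepa1 (0.42) among them, and 0 fell (1 at an unadjusted p under 0.05, 0 by DESeq2), with a median of 0.16. Ltbp2, which encodes a latent TGF-β binding protein family member, was called in each of the 6 fits without a library (edgeR adjusted p = 0.00177 over all libraries). Pmepa1 was called in 2 of the 6 fits without a library, and the replicate block gave 5 higher and 1 lower.

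Canonical Wnt targets, read beside Wisp1 and Wisp2, split evenly in the calls. A positive log2 fold change was seen in 7 of the 11 tested. Of 11 tested, Lef1 (0.64) and Myc (0.26) rose and Ccnd1 (−0.33) and Notum (−0.53) fell, with a median of 0.19. Axin2, the feedback gene most used as a Wnt readout, had 17.4 ± 4.23 CPM in siID4 and 13.6 ± 2.47 CPM in NT (adjusted p = 0.278, and 7.75e-04 with the replicate block). Lef1 was not called by DESeq2 (adjusted p = 0.103). It was called in 0, Notum in 3 and Myc in 5 of the 6 fits without a library, so 0 rose without NT replicate 2, and the replicate block gave 5 higher and 2 lower. Of 12 immediate early genes, the class to which Cyr61 and Ctgf belong, 0 rose and 0 fell by edgeR (0 and 3 at an unadjusted p under 0.05, 0 and 2 by DESeq2), with a median of −0.12. Ier3 (−0.42), Fosl1 (−0.51), Ier2 (−0.28) and Dusp1 (0.19) had the smallest adjusted p, from 0.0800 to 0.364. The replicate block called 1 immediate early gene higher, Dusp1, and 5 lower, among them Ier3, Fosl1 and Ier2.

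Of 13 other matricellular genes tested, 7 rose and 1 fell, with a median of 0.42. Tnn, a tenascin, had 11.1 ± 3.27 CPM in siID4 and 3.49 ± 0.511 CPM in NT, Postn rose by 0.78 and Sparc by 0.30. Spp1, osteopontin, had 2688 ± 139 CPM in siID4 and 4070 ± 405 CPM in NT and fell by 0.60 on the log2 scale. The count that rose was 4 without siID4 replicate 2, 4 without NT replicate 2 and 11 with the replicate block, which called 2 lower. For each list, the counts from all 6 libraries without a block stand beside 4.62% higher and 4.93% lower among all genes tested, and the counts with the replicate block beside 17.9% higher and 18.3% lower. The lists were not tested as sets.

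Of 11 fibroblast markers listed, 8 were tested, 3 rose (Col1a1, Col1a2 and Pdgfrb) and 1 fell (Pdgfra), with a median log2 fold change of 0.50. Their summed level was 4439 to 5111 CPM in siID4 and 3155 to 3728 CPM in NT. Lum averaged 0.060 CPM in siID4 and 0.033 CPM in NT, and Dpt 0.353 CPM in siID4 and 0.211 CPM in NT. Endothelial and pericyte markers, 7 in number, summed to 1.62 to 2.24 CPM in siID4 and 0.679 to 1.19 CPM in NT, and 5 adipocyte markers to 3.02 to 3.50 CPM in siID4 and 2.56 to 2.72 CPM in NT, with Plin1 at 0 in all 6 libraries. Pdgfrb and Pdgfra were each called in 3 of the 6 fits without a library. Of 8 epithelial markers, Cdh1 and Trp63 rose (each called in 2 of those 6 fits) and Epcam fell (called in 4). With the replicate block 6 fibroblast markers were higher, with Col3a1, Fap and Thy1 added, and 2 lower, with Dcn added. The block called 2 epithelial markers higher and 4 lower, with Krt5, Krt8 and Krt18 added to Epcam. It also called Kdr, the 1 endothelial marker tested, higher (adjusted p = 0.0106). The part of these markers in the CCN results was not tested.

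**Figure D5:**
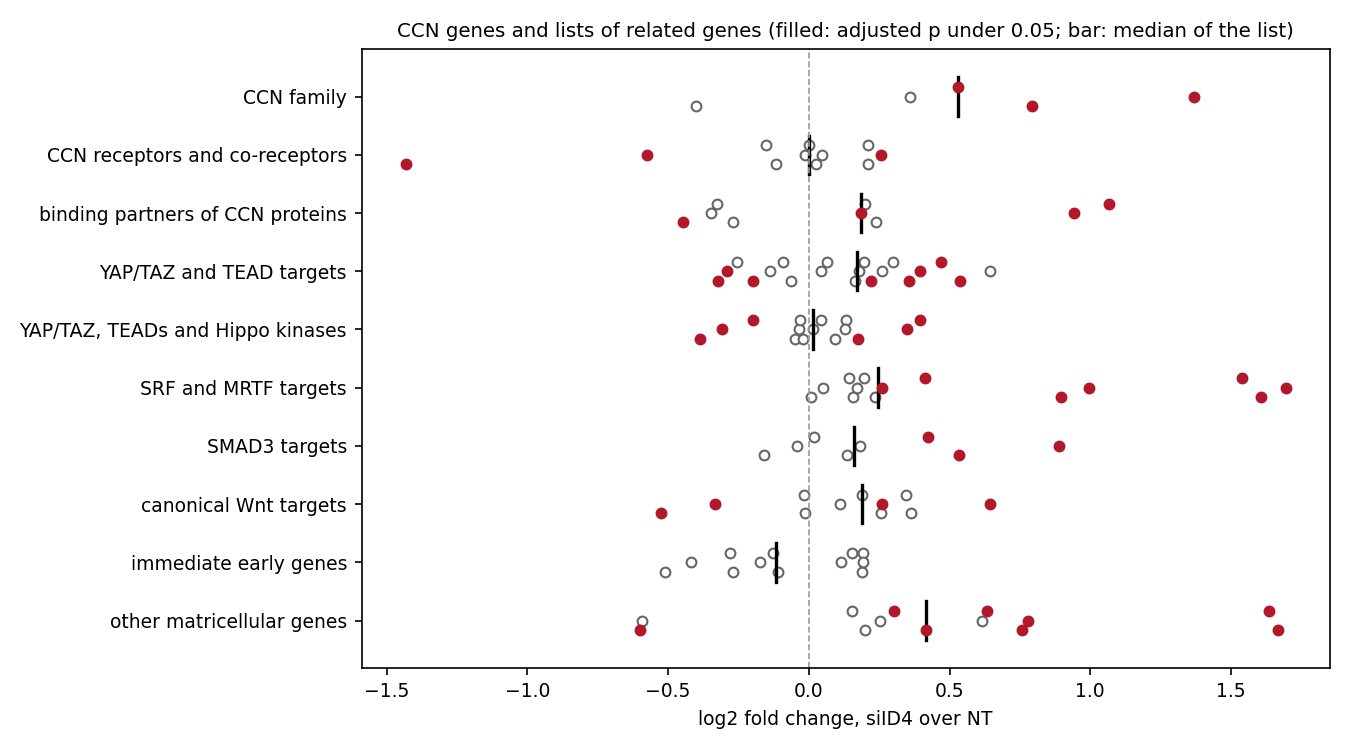
Log2 fold change of siID4 over NT for the 5 CCN genes and for each tested gene of 9 lists of related genes. Filled points have an adjusted p under 0.05, black bars are the list medians, and the dashed line is the median of all genes tested. The CCN family has the highest bar, 0.53, followed by the other matricellular genes at 0.42, and the immediate early genes lie lowest, at −0.12.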

How the data were processed

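RNA of 6 libraries was made from 1 µg each with a poly(A)-selecting, stranded kit, per the labels' protocols. The authors deposited expected counts per gene, beside a length for each gene. Trimming, alignment and quantification tools are listed as cutadapt, STAR and RSEM, with build mm10, per the submitters' processing notes. For the annotation release and strand setting, nothing is stated in the labels used here. These expected counts were rounded to whole numbers before testing. edgeR 4.0.16 in R 4.3.3 was run with TMM scaling, filterByExpr, robust quasi-likelihood fits and group as the only term, over 13941 genes. Benjamini-Hochberg adjustment covered all of them. SE and 95% intervals were derived from the F statistic. CPM are TMM-scaled, and TPM use the deposited lengths. The biological coefficient of variation was 7.83%. Limma 3.58.1 (voom) and DESeq2 1.42.0 were alternatives. The scripts were checked on data drawn with known changes. Coordinates are from GENCODE M21 on GRCm38 by gene identifier (25325 of 25655 matched), promoters from RefSeq.

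Members, lists and tests were chosen with earlier results of these data known. Named are all members, up to 4 genes of each of 9 lists by adjusted p, the 3 nearest profiles per member, and others picked after their values were seen (Ankrd1, Axin2, Yap1, Wwtr1, Notch1 and the marker genes). The values of 1 gene of the SMAD3 list are not reported here. Libraries with the same replicate number deviated together from their arm means (correlation across genes 0.42, 0.14 and 0.38 for numbers 1, 2 and 3). The main fit and the exact permutation test did not use the numbers as pairs. Differences within replicate numbers are therefore given beside them. Fits with a replicate block are given where they change the call of a gene named in the text or move a list's count by over 1.5 times.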

Additional observations from a re-analysis of the deposited data

How the results depend on the processing

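Across the 14 alternative fits the calls of Wisp1 and Wisp2 and the direction of all 5 CCN genes did not change. Without a library, Cyr61 ranged from 0.44 to 0.63 on the log2 scale and lost its call without siID4 replicate 2, and Ctgf ranged from 0.23 to 0.56 and gained a call without NT replicate 3. Nov was fitted in 13 of them, since it fell outside the filter of a mean of at least 5 CPM, and was called with the replicate block (−0.41). Genes called over the whole table numbered 1331, 5038 with the replicate block, and 445 to 1351 without a library. With library totals in place of TMM 829 genes were higher and 564 lower, against 644 and 687. The ratio did not overlap between the arms in 6 CCN pairs. By a different and looser criterion, differences within replicate numbers shared a sign in 10 pairs, which is not separation of the arms. All pairs are drawn from the same 5 genes. The change of Cyr61 over Ctgf was −0.015 to 0.30 without a library, reversed without NT replicate 3. The block changed no other CCN gene's call. The causes were not tested. Nov had 72 to 122 counts a library, the fewest of the 5 genes.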
